A study of Mus musculus with 49 samples.

Results

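The 10 genes described here are markers of monocytes and macrophages, Cd14, Fcgr1, Ms4a6c, F13a1, Ccr2, Ly86, Mpeg1, Emr1, Cd68 and Lgals3, out of 38253 genes in the expression table. They were chosen by name as markers of the lineage, with earlier results of these data known, and each was found once in the table through its Ensembl identifier. Emr1 is called Adgre1 in newer annotation. Monocytes arise in the bone marrow from stem cells through myeloid progenitors, leave it for the blood along a chemokine gradient, and can become macrophages in tissue. They recognise bacterial products and antibody-coated particles at the surface, engulf them and digest them in lysosomes. Leukaemias that carry fusions of the MLL gene are often of monocytic type.

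RNA was sequenced from 49 mouse samples in 10 groups, all labelled wild type, C57BL/6J, aged 6 to 12 weeks and bone marrow. The 30 normal samples were 5 of long-term and 5 of short-term haematopoietic stem cells (LT-HSC and ST-HSC), 6 of multipotent progenitors (MPP), 5 of the common myeloid progenitor (CMP), 5 of the progenitor of granulocytes and macrophages (GMP) and 4 of the progenitor of megakaryocytes and erythrocytes (MEP). The 19 leukaemias, named after the cell they began in, were 3 of STHSC:MA9, 6 of MPP:MA9, 4 of CMP:MA9 and 6 of GMP:MA9, grown from cells that had received the MLL-AF9 fusion (MA9) and a green fluorescent reporter (GFP) from a retrovirus and were given at once to irradiated mice. Normal cells had been sorted as negative for mature lineage markers, with CD11b of monocytes and Gr-1 of granulocytes among them. ST-HSC and LT-HSC were parted by CD34, and CMP and GMP by the Fcγ receptor; the gate of MEP is not given in the methods used here. Leukaemia cells were sorted for GFP alone, from the spleen according to the methods of the study, although the labels give bone marrow. The fusion, the gate, the irradiated host and possibly the tissue therefore differ together between leukaemia and normal cell and cannot be told apart. In bulk samples a smaller share of marker-bearing cells and less RNA per cell cannot be told apart either.

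Values are FPKM, fragments scaled to the length of the transcript and to the mapped fragments of the sample. A sample held 15282 to 17852 genes above 0, and its depth, relative to the median sample, ranged from 0.495 to 1.54. Replicates 4 and 5 of LT-HSC and of ST-HSC stood apart from replicates 1 to 3. The summed FPKM of 11 neutrophil genes was 7810 to 68100 in these 4 samples and 22.9 to 1180 in the other 6, and that of 6 erythroid genes was 4470 to 51100 against 217 to 4410. Counts and changes that involve these samples, or share a fit with them, are given without them too where a call, an order or a count moved.

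The promoters of the members that ran together most closely in normal cells, F13a1, Ms4a6c and Ly86, are shown first, with that of Cd68 for comparison. Over the 30 normal samples the Pearson r of log2(FPKM + 1) was 0.98 for F13a1 with Ms4a6c, for F13a1 with Ly86 and for Ms4a6c with Ly86, a description over samples that share groups and libraries. Over the 26 samples without stem cell replicates 4 and 5 it was 0.99, 0.98 and 0.98 in turn. RefSeq listed promoters of 8 members, 9 in all since F13a1 has 2 start sites, each running from 250 bases before the start to 50 after it in the GRCm38.p6 build. Cd14 and Emr1 had none. Capitals mark matches on either strand to AGGAAG, a core that PU.1 and other ETS factors can bind, or to TTGCNNAA, a form of the C/EBP motif.
F13a1 (start site 1, chr13:37050195-37050494, minus strand): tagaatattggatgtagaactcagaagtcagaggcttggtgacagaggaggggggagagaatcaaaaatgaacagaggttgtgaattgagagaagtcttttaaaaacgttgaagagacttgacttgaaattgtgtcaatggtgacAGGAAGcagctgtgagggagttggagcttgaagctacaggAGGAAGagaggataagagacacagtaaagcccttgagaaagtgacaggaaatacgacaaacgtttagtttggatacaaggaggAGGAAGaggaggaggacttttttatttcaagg
Ms4a6c (chr19:11469118-11469417, plus strand): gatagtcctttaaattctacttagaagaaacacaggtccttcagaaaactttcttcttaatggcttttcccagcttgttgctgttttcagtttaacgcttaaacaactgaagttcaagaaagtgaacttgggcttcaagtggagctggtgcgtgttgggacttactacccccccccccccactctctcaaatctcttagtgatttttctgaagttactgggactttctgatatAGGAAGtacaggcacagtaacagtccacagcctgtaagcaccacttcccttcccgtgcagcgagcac
Ly86 (chr13:37345095-37345394, plus strand): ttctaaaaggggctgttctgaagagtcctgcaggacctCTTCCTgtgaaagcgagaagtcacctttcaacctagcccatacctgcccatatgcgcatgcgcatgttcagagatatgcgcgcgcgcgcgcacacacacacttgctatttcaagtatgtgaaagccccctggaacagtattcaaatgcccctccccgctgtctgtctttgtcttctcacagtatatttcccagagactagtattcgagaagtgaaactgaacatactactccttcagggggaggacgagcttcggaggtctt
Cd68 (chr11:69666121-69666420, minus strand): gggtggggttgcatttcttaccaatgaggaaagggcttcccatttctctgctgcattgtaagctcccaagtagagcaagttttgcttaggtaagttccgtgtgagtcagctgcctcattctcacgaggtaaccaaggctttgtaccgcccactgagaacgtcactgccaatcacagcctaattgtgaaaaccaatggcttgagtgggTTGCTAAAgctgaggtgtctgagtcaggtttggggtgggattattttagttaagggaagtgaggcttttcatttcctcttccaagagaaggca

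AGGAAG or its complement was found in 5 of the 9 promoters, against 35.4% of 32851 promoters of the same length. F13a1 held 3 matches at the first start site and 2 at the other, Fcgr1 held 2 that overlap, and Ms4a6c and Ly86 held 1 each. TTGCNNAA was found in 1 of the 9, that of Cd68, against 10.8% of all promoters. Neither was found in the windows of Ccr2, Mpeg1 and Lgals3. Yet Ccr2 and Mpeg1 also ran with F13a1 over the 30 normal samples (Pearson r 0.93 and 0.9), whereas Fcgr1, with 2 matches, did not (0.2). A link between the matches and these correlations was not tested. The matches are a description of these letters and were not tested as binding sites.

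**Figure D1:**
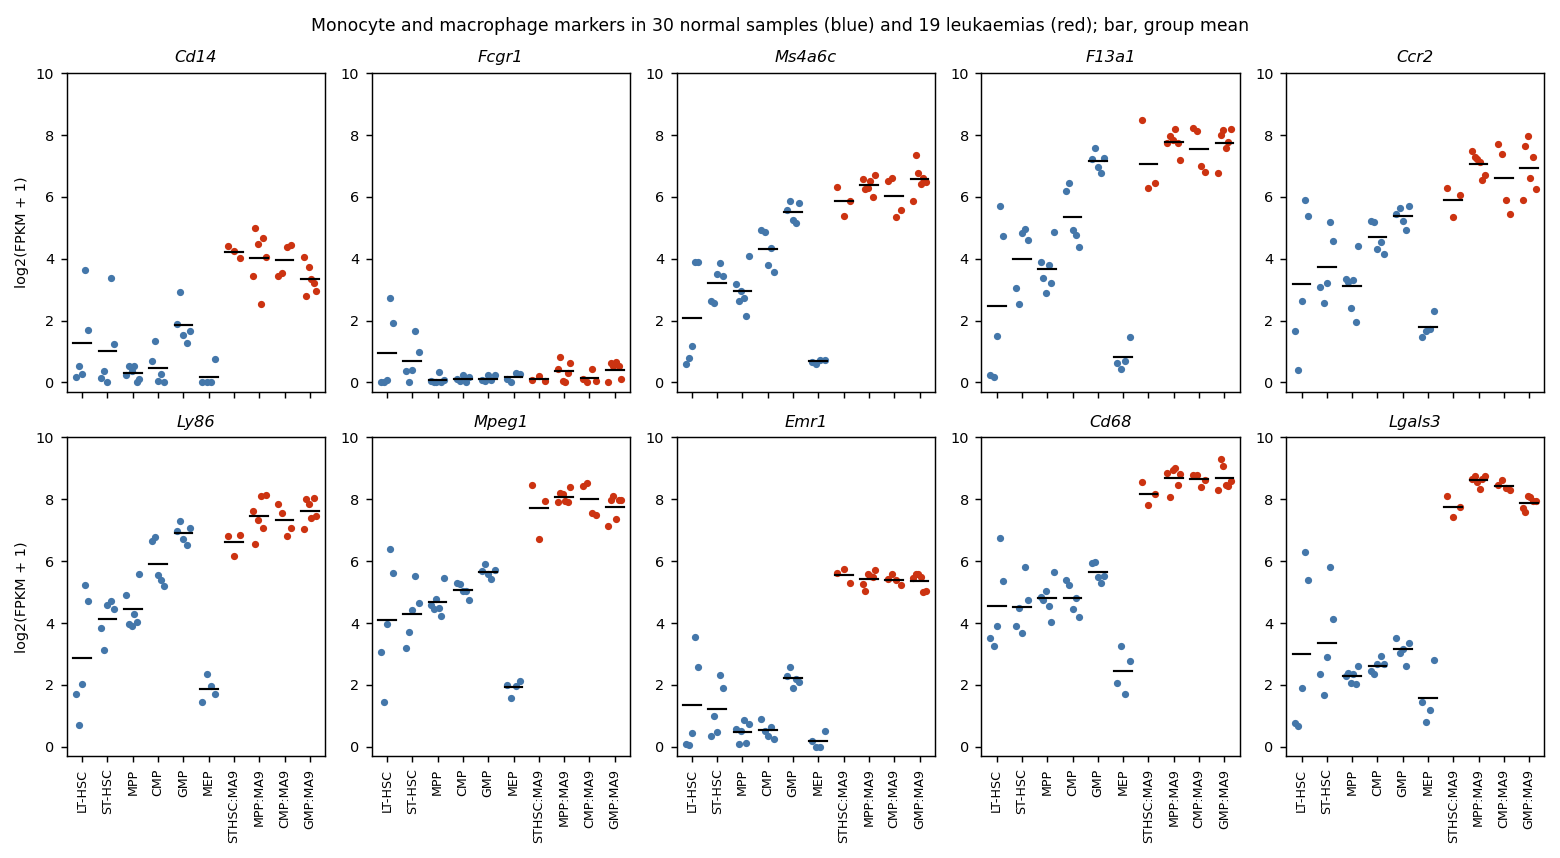
Level of each of the 10 markers as log2(FPKM + 1) in every sample, by group, with normal samples in blue, leukaemias in red and a bar at the group mean. Lgals3, Emr1, Cd68 and Mpeg1 lay higher in each of the 19 leukaemias than in each of the 30 normal samples, F13a1, Ly86, Ms4a6c and Ccr2 had higher means in GMP than in CMP and in CMP than in MPP, and Fcgr1 stayed near 0 outside the stem cell groups.

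The levels fell into 3 patterns (the plot of levels by sample). Lgals3, Emr1, Cd68 and Mpeg1 were higher in every leukaemia than in any normal sample, a separation upwards seen in 2.88% of 12666 genes. F13a1, Ly86, Ms4a6c, Ccr2 and Cd14 were also high in leukaemias, but their lowest leukaemia lay below the highest normal sample. Fcgr1 was near 0 nearly everywhere.

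At the cell surface, Cd14 encodes the receptor that hands bacterial lipopolysaccharide to the Tlr4 complex (ENSMUSG00000051439, chromosome 18, 36884728 to 36886390, minus strand, in the NCBIM37 build, as are all gene positions here). Its FPKM was 20.13, 17.89 and 15.43 in the 3 STHSC:MA9 samples, and 9.82, 10.75, 19.65 and 20.62 in CMP:MA9. In the 6 MPP:MA9 samples it ran from 4.8 to 31.21 with a median of 18.3, and in the 6 GMP:MA9 samples from 5.89 to 15.6 with a median of 8.74. Normal cells were lower, with 2.67, 6.53, 1.9, 1.43 and 2.16 in GMP and 0.6, 1.54, 0.04, 0.2 and 0 in CMP. All 6 MPP samples were at 0.46 or below. LT-HSC replicates 4 and 5, at 11.46 and 2.25, and ST-HSC replicates 4 and 5, at 9.3 and 1.37, were the exceptions among stem cells, whose other 6 samples did not pass 0.44.

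Fcgr1 encodes the high-affinity receptor for IgG, CD64 (ENSMUSG00000015947, chromosome 3, 96086832 to 96098179, minus strand). It was at or below 0.75 FPKM in all 19 leukaemias, with 3 of them listed at 0. The only samples at 1 FPKM or more were LT-HSC replicates 4 and 5, at 5.63 and 2.81, and ST-HSC replicates 4 and 5, at 2.14 and 1. Its mean was below 1 FPKM in each of the 3 fits, so it was not tested there. Its relatives were measured well above it on the same per-length scale. Fcgr3, the low-affinity receptor CD16, lay between 131.58 and 230.27 FPKM in the leukaemias, and Fcgr4 between 7.93 and 65.98. Fcer1g, the signalling chain shared by these receptors, lay between 770.20 and 1646.56.

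Ccr2 encodes the receptor for the chemokine Ccl2 that draws monocytes out of the marrow (ENSMUSG00000049103, chromosome 9, 124016689 to 124028296, plus strand). Its FPKM was 76.81, 40.08 and 65.08 in STHSC:MA9 and 209.46, 167.77, 58.54 and 42.63 in CMP:MA9. It ran from 91.8 to 176.18 (median 144.425) in MPP:MA9 and from 58.24 to 249.44 (median 125.7) in GMP:MA9. GMP, at 42.22, 48.62, 36.66, 29.52 and 50.97, lay within or just below the lower leukaemias. Ccr2 was the most variable of the 9 expressed markers among the 19 leukaemias (coefficient of variation 50.8%), followed by Cd14 (47.9%). The ligands in the list fixed for it were low, with Ccl2 at no more than 3.19 FPKM in any leukaemia, Ccl7 listed at 0 in 18 of 19 and Ccl12 in all 19.

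Emr1 encodes F4/80, the adhesion receptor that is the classical antigen of mouse macrophages (ENSMUSG00000004730, chromosome 17, 57498109 to 57622952, plus strand). It was 48.17, 52.83 and 38.35 FPKM in STHSC:MA9 and 41.58, 47.1, 41.35 and 36.16 in CMP:MA9. It ran from 32.16 to 51.66 (median 44.24) in MPP:MA9 and from 30.75 to 46.86 (median 43.24) in GMP:MA9. Emr1 was the most even of the markers among leukaemias, with a coefficient of variation of 15.3% over the 19 and group means of 40.4 to 46.4. GMP held 3.93, 4.99, 2.74, 3.61 and 3.22, and MPP, CMP and MEP samples held 0.87 or less. Stem cells were at 0.98 or less in replicates 1 to 3 and between 2.72 and 10.81 in replicates 4 and 5.

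Ms4a6c, a membrane protein of the MS4A family (ENSMUSG00000079419, chromosome 19, 11543858 to 11556687, plus strand), was 78.84, 40.71 and 57.82 FPKM in STHSC:MA9 and 90.62, 96.07, 40.14 and 46.65 in CMP:MA9. It ran from 62.89 to 104.67 (median 83.91) in MPP:MA9 and from 57.25 to 163.24 (median 92.495) in GMP:MA9. GMP, at 46.49, 57.25, 36.88, 34.5 and 54.77, overlapped the leukaemias, whereas the 4 MEP samples were between 0.52 and 0.67. Of the 31-base windows in its exons, 25.28% were shared with other genes, most of them with Ms4a6b, so its level is uncertain to that extent.

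Ly86 encodes MD-1, a secreted partner of the receptor Cd180 (ENSMUSG00000021423, chromosome 13, 37437214 to 37510905, plus strand). Its FPKM was 110.47, 71.65 and 113.92 in STHSC:MA9 and 227.82, 187.47, 112.33 and 132.23 in CMP:MA9. It ran from 92.89 to 278.63 (median 176.645) in MPP:MA9 and from 129.51 to 261.25 (median 202.84) in GMP:MA9. GMP held 124.47, 156.49, 104.06, 90.69 and 134.53, as high as STHSC:MA9. Cd180 itself lay between 41.76 and 260.57 in leukaemias, with a mean of 67.5 in STHSC:MA9 and 173 in GMP:MA9.

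Among secreted and intracellular products, F13a1 encodes the A subunit of clotting factor XIII, a transglutaminase (ENSMUSG00000039109, chromosome 13, 36959047 to 37142113, minus strand). Its FPKM was 354.2, 77.19 and 85.83 in STHSC:MA9 and 301.86, 281.54, 125.78 and 110.49 in CMP:MA9. It ran from 143.82 to 290.17 (median 221.25) in MPP:MA9 and from 107.88 to 293.37 (median 237.725) in GMP:MA9. GMP, at 148.54, 191.42, 122.8, 109.51 and 151.06, again overlapped the leukaemias. F13b, which encodes the carrier subunit made elsewhere in the body, was listed at 0 in all 19 leukaemias.

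Mpeg1 encodes perforin-2, which forms pores in engulfed bacteria (ENSMUSG00000046805, chromosome 19, 12535269 to 12539774, plus strand). It was 348.74, 105.37 and 243.32 FPKM in STHSC:MA9 and 343.76, 366.13, 188.27 and 178.78 in CMP:MA9. It ran from 237.61 to 337.43 (median 265.65) in MPP:MA9 and from 140.83 to 276.49 (median 249.105) in GMP:MA9. GMP held 50.49, 58.65, 46.87, 42.22 and 51.86, below every leukaemia. The nearest normal sample was LT-HSC replicate 4, at 82.21.

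Cd68 encodes a glycoprotein of the lysosome and endosome, macrosialin (ENSMUSG00000018774, chromosome 11, 69477715 to 69479655, minus strand). It was 376.24, 223.68 and 288.49 FPKM in STHSC:MA9 and 443.02, 443.33, 337.81 and 392.01 in CMP:MA9. It ran from 267.87 to 510.74 (median 452.765) in MPP:MA9 and from 315.72 to 637.8 (median 368.4) in GMP:MA9. GMP held 60.4, 61.8, 43.79, 38.37 and 45.21. Cd68 had the highest mean of the 10 markers in the leukaemias, 401 FPKM over the 19.

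Lgals3 encodes galectin-3, a lectin of the cytoplasm and cell surface (ENSMUSG00000050335, chromosome 14, 47987426 to 48005835, plus strand). It was 275.39, 169.49 and 216.81 FPKM in STHSC:MA9 and 353.9, 392.42, 330.01 and 311.77 in CMP:MA9. It ran from 323.59 to 434.09 (median 401.8) in MPP:MA9 and from 193.03 to 272.49 (median 243.74) in GMP:MA9. In GMP it was only 10.55, 7.25, 8.03, 5.16 and 9.24, and in CMP 4.42, 4.05, 5.39, 6.58 and 5.41. GMP and CMP were thus far below every leukaemia. The highest normal samples were LT-HSC replicates 4 and 5, at 78.34 and 40.89, and ST-HSC replicate 4, at 55.21.

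To ask how the markers changed when a normal cell became a leukaemia, each leukaemia was compared with its own cell of origin in limma on log2(FPKM + 1). A call needed both an adjusted p under 0.05 and a log2 change beyond 1 in size. Of the 10 markers, 9 reached the mean of 1 FPKM that testing required, and each of these 9 also had a mean above 1 FPKM over the 21 normal samples of origin alone. For Cd14 that mean, 1.41, rested in part on ST-HSC replicates 4 and 5, at 9.3 and 1.37. Its means in MPP and CMP were 0.247 and 0.476, so Cd14 may have been tested only because of its leukaemias. All 9 rose in STHSC:MA9 against ST-HSC, in MPP:MA9 against MPP and in CMP:MA9 against CMP, and 7 of 9 rose in GMP:MA9 against GMP. Over 12600 genes, the share called higher was 12.3%, 13.5%, 13% and 13.5% in turn, and the share called in either direction 24.2%, 27.1%, 27.8% and 22.4%. The median log2 change of the 9 was 3.20, 3.89, 2.93 and 1.55. A list of 11 neutrophil genes moved with them, with 6, 11, 8 and 3 of its genes called higher, none lower, and medians of 4.08, 5.79, 4.51 and 0.24, and its part in the markers' changes was not tested. Without stem cell replicates 4 and 5 all 11 were called higher in STHSC:MA9, with a median of 6.10.

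**Figure D2:**
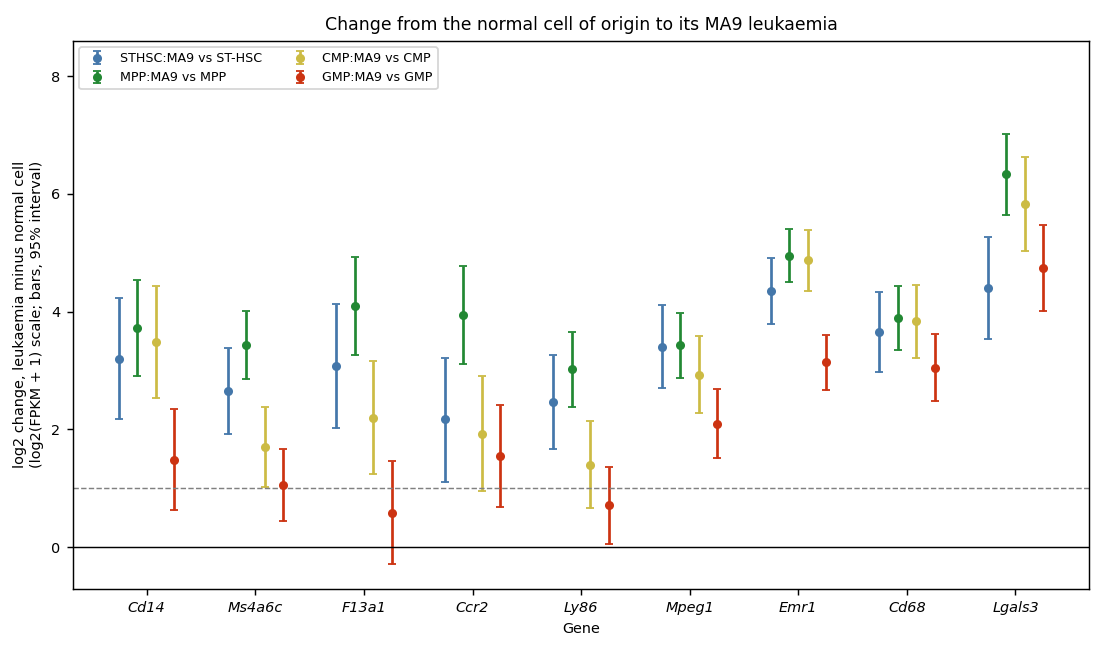
Log2 change with its 95% interval for the 9 tested markers in each leukaemia against its cell of origin, on the log2(FPKM + 1) scale, with a dashed line at the threshold of 1. Lgals3 and Emr1 changed most, and GMP:MA9 had the smallest of the 4 changes for each of the 8 markers other than Lgals3.

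Lgals3 changed most. Its log2 change was 6.33 (SE 0.34, adjusted p = 5.27e-18) in MPP:MA9, 5.83 (SE 0.40) in CMP:MA9, 4.74 (SE 0.36) in GMP:MA9 and 4.40 (SE 0.43) in STHSC:MA9. Emr1 came next, at 4.95 (SE 0.22, adjusted p = 1.92e-20) in MPP:MA9, 4.87 (SE 0.26) in CMP:MA9, 4.35 (SE 0.28) in STHSC:MA9 and 3.14 (SE 0.23) in GMP:MA9. Neither gene had an overlap of values between a leukaemia group and its normal cell. Values did not overlap for 9 of 10 markers in each of the first 3 comparisons and for 5 of 10 in GMP:MA9 against GMP, where 39.6%, 40.3%, 48.4% and 39.6% of genes did not.

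Cd68 rose in all 4 comparisons, with log2 changes of 3.66 (SE 0.34) from ST-HSC, 3.89 (SE 0.27) from MPP, 3.84 (SE 0.31) from CMP and 3.05 (SE 0.28) from GMP. Mpeg1 rose by 3.40 (SE 0.35), 3.43 (SE 0.27), 2.93 (SE 0.32) and 2.09 (SE 0.29), and Cd14 by 3.20 (SE 0.51), 3.73 (SE 0.40), 3.48 (SE 0.47) and 1.49 (SE 0.42). For Cd14 the 6 GMP:MA9 samples overlapped GMP, since GMP replicate 2 stood at 6.53 FPKM.

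F13a1 and Ly86 were the markers whose call depended on the origin. F13a1 rose by 4.10 (SE 0.41) from MPP, 3.08 (SE 0.52) from ST-HSC and 2.20 (SE 0.48) from CMP. Against GMP its log2 change was 0.59 (SE 0.43, 95% interval -0.28 to 1.46, adjusted p = 0.24). Ly86 rose by 3.02 (SE 0.31), 2.47 (SE 0.39) and 1.40 (SE 0.36) in the same order. Against GMP its log2 change was 0.71 (SE 0.33, 95% interval 0.05 to 1.37, adjusted p = 0.0587). Ms4a6c and Ccr2 passed in all 4, with 1.06 (SE 0.30, adjusted p = 0.00286) and 1.55 (SE 0.43, adjusted p = 0.00244) against GMP. The call of Ms4a6c in GMP:MA9 rested on the fold threshold, and its log2 change was 0.99, 0.96 and 0.90 without GMP replicate 3, GMP replicate 4 or GMP:MA9 replicate 2.

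Whether the change itself differed among the 4 origins was tested with an F test. It passed for 8 of the 9 markers (adjusted p from 8.06e-05 for Emr1 to 0.0272 for Mpeg1), where 38% of all genes passed, and Cd68 did not pass (adjusted p = 0.235). Without replicates 4 and 5 of LT-HSC and ST-HSC, 9 of 9 markers were again called higher in STHSC:MA9 against ST-HSC, where 25.9% of genes were called and 13.4% higher. The log2 change of Lgals3 in that comparison was then 5.47 in place of 4.40, so that its order with GMP:MA9 turned, that of Cd14 4.06 in place of 3.20, and that of Ccr2 2.94 in place of 2.17.

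Since GMP is the normal progenitor nearest to the monocyte, each leukaemia was also set against it. These comparisons share the GMP samples with each other and with GMP:MA9 against GMP, so their values are given side by side only. Cd14, Mpeg1, Emr1, Cd68 and Lgals3 rose in STHSC:MA9 (5 of 9, with 18.9% of all genes called and 11.6% higher), and with Ccr2 they rose in MPP:MA9 (6 of 9, 25.6% and 16.3%) and in CMP:MA9 (6 of 9, 23% and 14.2%). Values did not overlap with GMP for 5, 6 and 5 of the 10 markers, where 48.8%, 46% and 47.5% of genes did not. The log2 change of Lgals3 was 4.62 (SE 0.43), 5.47 (SE 0.36) and 5.29 (SE 0.40) in the 3 leukaemias in turn. The log2 changes of F13a1 were -0.09 (95% interval -1.14 to 0.96), 0.62 (-0.25 to 1.49) and 0.38 (-0.58 to 1.35), and those of Ly86 -0.31 (-1.10 to 0.49), 0.55 (-0.11 to 1.21) and 0.40 (-0.33 to 1.13). Those of Ms4a6c were 0.33 (-0.40 to 1.07), 0.87 (0.26 to 1.48) and 0.49 (-0.19 to 1.16). F13a1, Ly86 and Ms4a6c therefore had no call against GMP in a leukaemia of another origin. Ms4a6c in MPP:MA9 passed the limit on adjusted p (0.0123) but not that on fold. Its values there did not overlap those of GMP (62.89 to 104.67 against 34.5 to 57.25 FPKM). The call of Ccr2 in CMP:MA9 against GMP (log2 change 1.23, adjusted p = 0.0289) was lost without GMP replicate 4 (1.11, adjusted p = 0.0636), CMP:MA9 replicate 1 (0.86, adjusted p = 0.159) or CMP:MA9 replicate 2 (0.97, adjusted p = 0.12).

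Leukaemias of different origin were then compared with each other. None of the 9 tested markers was called in any of the 6 pairs by limma, where 2.88% (STHSC:MA9 against MPP:MA9), 0.363% (against CMP:MA9), 0.536% (against GMP:MA9), 0.115% (MPP:MA9 against CMP:MA9), 2.23% (MPP:MA9 against GMP:MA9) and 0.206% (CMP:MA9 against GMP:MA9) of 12128 genes were. At an unadjusted p under 0.05 the counts were 4, 1, 5, 0, 1 and 1 in the same order. The share of all genes at that looser limit was not computed, so these counts cannot be set against the shares above. Lgals3 passed the limit on adjusted p but not that on fold, with a log2 difference of -0.86 (SE 0.15, adjusted p = 0.00225) between STHSC:MA9 and MPP:MA9 and of 0.73 (SE 0.13, adjusted p = 9e-04) between MPP:MA9 and GMP:MA9. All 6 MPP:MA9 samples had more Lgals3 than all 3 STHSC:MA9 and all 6 GMP:MA9 samples, and so had all 4 CMP:MA9 samples (311.77 to 392.42 FPKM). Values also did not overlap for Ccr2 between STHSC:MA9 and MPP:MA9 and for Ly86 between STHSC:MA9 and GMP:MA9, both lower in STHSC:MA9. The share of all genes without overlap is not given for these pairs.

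**Figure D3:**
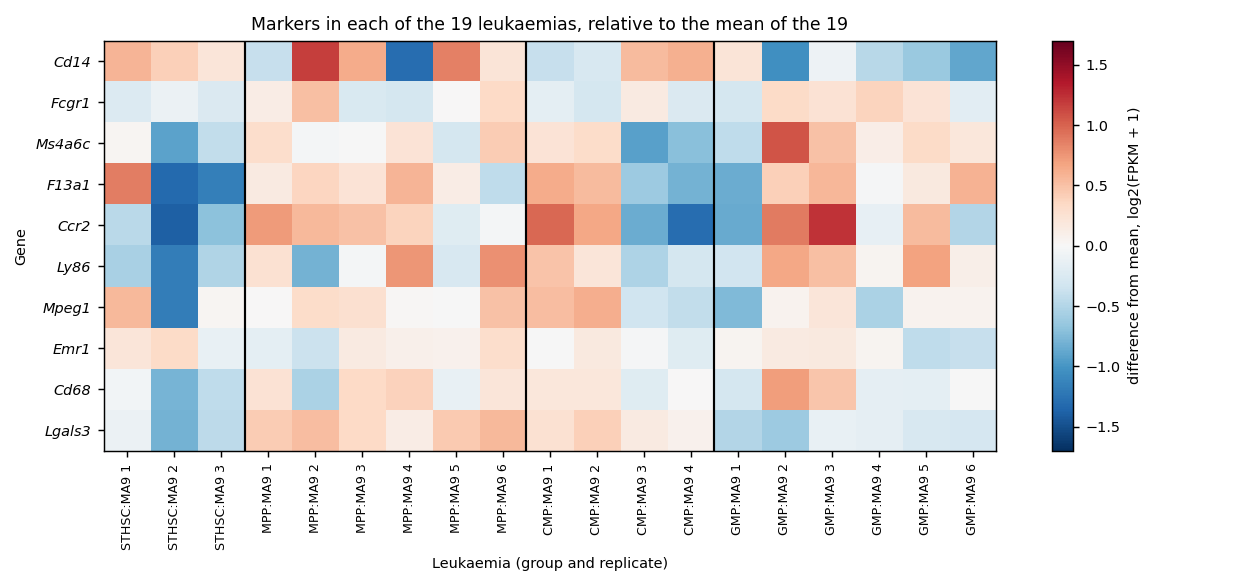
Difference of each marker from its mean over the 19 leukaemias, on the log2(FPKM + 1) scale, with 1 column per leukaemia and lines between origins. STHSC:MA9 replicate 2 and CMP:MA9 replicates 3 and 4 were low for Ccr2, F13a1 and Ms4a6c, and Emr1 varied least.

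Variation within an origin was often as large as that between origins (the map of the 19 leukaemias). In CMP:MA9, replicates 1 and 2 were above replicates 3 and 4 for Ccr2, F13a1, Ms4a6c, Ly86, Mpeg1, Cd68, Lgals3 and Emr1, and below them for Cd14. In STHSC:MA9, replicate 2 was the lowest of the 3 for Ms4a6c, F13a1, Ccr2, Ly86, Mpeg1, Cd68 and Lgals3, and the highest for Emr1. The F13a1 value of STHSC:MA9 replicate 1, 354.2 FPKM, was the highest of the 19, and the other 2 samples of that group had the lowest values of the 19. Without that replicate F13a1 had a log2 difference of -1.41 between STHSC:MA9 and MPP:MA9 (adjusted p = 0.027), in place of -0.71 (adjusted p = 0.295), and Lgals3 one of -1.03 (adjusted p = 0.00103), both called. Ly86 was called in that pair without MPP:MA9 replicate 2 (-1.04, adjusted p = 0.0304). Over the 19 leukaemias the Pearson r with Ccr2 was 0.83 for Ms4a6c and 0.74 for F13a1, and that of Cd14 with Ly86 was -0.73, as a description over samples that share groups.

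Among normal cells, F13a1, Ly86, Ms4a6c and Ccr2 had their highest means in GMP and their lowest in MEP. F13a1 had a median of 11.12 FPKM in MPP (6.46 to 28.32), 29.41 in CMP (19.71 to 86.14), 148.54 in GMP (109.51 to 191.42) and 0.59 in MEP (0.36 to 1.77). The order of group means was GMP, CMP, then ST-HSC or MPP for F13a1, Ly86 and Ms4a6c, and neighbours from ST-HSC or MPP down to LT-HSC differed by less than their spread. GMP differed from MEP in 8 of 9 tested markers, all higher in GMP, where 20.5% of 12367 genes were called and 11.2% were higher. The log2 difference was 6.35 for F13a1 (SE 0.79, adjusted p = 1.26e-07), 5.04 for Ly86 (SE 0.61), 4.84 for Ms4a6c (SE 0.52) and 1.58 for Lgals3 (SE 0.83, adjusted p = 0.121). CMP differed from MEP in 6 of 9, all higher in CMP (11.8% called, 9.49% higher), and Cd14, Emr1 and Lgals3 were not called there. Without stem cell replicates 4 and 5, which share this fit, Lgals3 was called higher in GMP (1.58, adjusted p = 0.000138) and in CMP (1.05, adjusted p = 0.00995) than in MEP. The calls of the other markers tested there stayed the same, and Cd14 was not tested.

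Neighbouring steps gave fewer calls, and these too depended on the stem cell samples that stood apart. CMP against GMP gave 2 of 9 markers, Cd14 and Emr1, both lower in CMP, with log2 differences of -1.38 (SE 0.55, adjusted p = 0.0477) and -1.68 (SE 0.47, adjusted p = 0.00624), where 11.2% of genes were called and 3.31% were lower in CMP. The fit shares its estimate of spread with LT-HSC and ST-HSC, and without their replicates 4 and 5 the count was 4 of 8, Emr1, Ms4a6c, F13a1 and Ly86, all lower in CMP (11.8% called, 3.66% lower). Cd14 was then below the mean of 1 FPKM and was not tested, and with all samples it lost its call in 8 of the 10 fits that left out 1 CMP or GMP sample. MPP against CMP gave 0 of 9 (4.32% of all genes, 4 of the 9 at an unadjusted p under 0.05), and 4 of 8 without those samples, Ms4a6c, F13a1, Ccr2 and Ly86, all lower in MPP (4.8% called, 1.66% lower). ST-HSC against MPP gave 0 of 9 (3.44% of all genes, 0 of the 9 at an unadjusted p under 0.05) and 0 of 8 without them (5.14%). For none of the steps between normal cells was the share of all genes at an unadjusted p under 0.05 computed.

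LT-HSC against ST-HSC gave 0 of 9 markers with all samples (2.26% of all genes, 2 of the 9 at an unadjusted p under 0.05). Without replicates 4 and 5 it gave 4 of 8, all lower in LT-HSC (4.5% called, 3.19% lower), and the count was 3 without LT-HSC replicate 4 alone and 1 without LT-HSC replicate 5 alone. Ms4a6c was 0.51, 0.74 and 1.28 FPKM in LT-HSC replicates 1 to 3 and 5.17, 4.94 and 10.41 in ST-HSC replicates 1 to 3, a log2 difference of -2.04 (adjusted p = 0.000783). F13a1 was 0.18, 0.13 and 1.86 against 7.3, 4.77 and 27.47 (log2 difference -2.83, adjusted p = 0.0014). Ly86 was 2.26, 0.62 and 3.04 against 13.23, 7.67 and 23.21 (-2.38, adjusted p = 0.0012), and Lgals3 was 0.71, 0.58 and 2.75 against 4.07, 2.16 and 6.41 (-1.18, adjusted p = 0.0453). With all samples their log2 differences were -1.14, -1.52, -1.27 and -0.36.

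**Figure D4:**
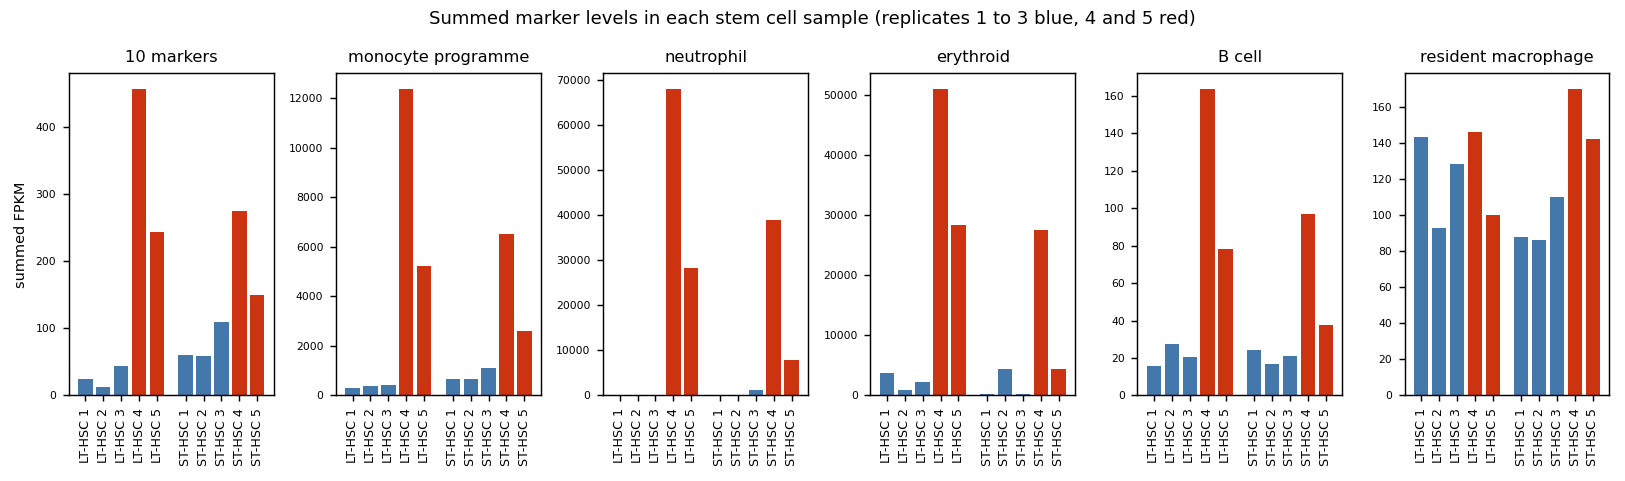
Summed FPKM of the 10 markers and of 5 lists of cell type markers in each LT-HSC and ST-HSC sample, with replicates 1 to 3 in blue and 4 and 5 in red; each panel has its own axis from 0. Replicates 4 and 5 exceeded replicates 1 to 3 in the 10 markers, the monocyte programme, neutrophil, erythroid and B cell lists, and not in resident macrophage genes.

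The stem cell samples carried genes of several mature cell types at once (the plot of summed levels). The 10 markers summed to 149 to 457 FPKM in replicates 4 and 5 and to 13.2 to 109 in replicates 1 to 3. The monocyte programme, 29 genes from Csf1r to Lyz2, summed to 2620 to 12400 against 309 to 1110, and 6 B cell genes to 37.4 to 164 against 15.8 to 27.4. The 20 resident macrophage genes did not part them, at 99.8 to 170 against 86.0 to 143. The part of such cells in the marker values of these samples was not tested.

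Among partners and relatives of the markers, more of the tested genes rose than fell in each leukaemia. Of 22 partners and relatives, 17 were tested against the cell of origin, and 11 rose and 2 fell in STHSC:MA9, 14 and 2 in MPP:MA9, 14 and 2 in CMP:MA9, and 9 and 1 in GMP:MA9. The share of all genes called higher was 12.3%, 13.5%, 13% and 13.5% in turn. Without stem cell replicates 4 and 5 the counts in STHSC:MA9 were 13 and 2. The largest rises were of Fcgr4 (log2 change 4.13, SE 0.55), Fcgr3 (4.00, SE 0.41) and Lgals1 (3.35, SE 0.39) in STHSC:MA9, where Fcgr4 (5.06), Fcgr3 (4.82) and Fcer1g (3.62) led without those replicates, and of Fcgr4 (4.52, SE 0.43), Cd97 (4.46, SE 0.23) and Ms4a4c (4.29, SE 0.37) in MPP:MA9. Cd97 encodes an adhesion receptor related to F4/80, and Ms4a4c another MS4A protein. In CMP:MA9 they were Fcgr3 and Fcgr4 (4.98 each, SE 0.38 and 0.50) and Cd97 (3.54, SE 0.27), and in GMP:MA9 Ms4a4c (3.38, SE 0.39), Cd97 (2.73, SE 0.24) and Fcgr4 (2.57, SE 0.45). CMP had been sorted as low for the Fcγ receptor and leukaemia cells for GFP alone. The rise of Fcgr3 from CMP therefore cannot be told apart from the gate. Of the 31-base windows in exons, 22.94% of those of Cd97, 13.38% of Fcgr3 and 11.57% of Ms4a4c were shared with other genes. Most were shared with Ddx39, which overlaps Cd97 on the other strand, with Fcgr2b and with Ms4a4b in turn. The levels of these 3 genes are uncertain to that extent.

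Lgals3bp, which encodes a secreted glycoprotein that galectin-3 binds, fell in all 4 leukaemias while Lgals3 rose. Its log2 change was -4.29 (SE 0.38) from ST-HSC, -3.81 (SE 0.30) from MPP, -4.09 (SE 0.35) from CMP and -2.59 (SE 0.32) from GMP. Its mean was 130 FPKM in MPP and 9.45 in MPP:MA9. Lgals9, another galectin, fell in the first 3, with log2 changes of -1.37 (SE 0.23), -1.30 (SE 0.18) and -2.0 (SE 0.21), and was not called in GMP:MA9 (-0.38, adjusted p = 0.0775). Lgals9 and Lgals3bp were both higher in CMP than in GMP, by 1.42 (SE 0.15) and 1.13 (SE 0.15). Fcgr3, Fcgr2b and Tlr4 were lower in CMP than in GMP, by log2 differences of -4.70, -2.01 and -1.85. Fcgr3 and Fcgr2b encode the antigens by which those cells were sorted, so their difference is no finding.

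In the monocyte programme, 23 of 29 genes rose in STHSC:MA9, 26 in MPP:MA9 and 25 in CMP:MA9 against the cell of origin, with none lower, and 19 rose and 3 fell in GMP:MA9. Of all genes, 12.3%, 13.5%, 13% and 13.5% were called higher in turn. Without stem cell replicates 4 and 5, 24 rose in STHSC:MA9. Fn1, which encodes fibronectin, rose most in all 4, by 5.00 (SE 0.66), 7.68 (SE 0.52), 8.24 (SE 0.61) and 6.56 (SE 0.55). In STHSC:MA9 Tyrobp (4.20, SE 0.43), an adaptor of activating receptors, and Itgam (4.13, SE 0.50) followed, and without those replicates Fn1 (6.11, SE 0.62) was followed by Cybb (5.57, SE 0.33) and Itgam (5.39, SE 0.26), with Tyrobp at 5.10 (SE 0.29). Itgam encodes CD11b, an antigen that the sort of normal cells had removed. Cybb, a subunit of the phagocyte oxidase, followed in MPP:MA9 (6.40, SE 0.46) with Lyz2 (5.46, SE 0.43), and in CMP:MA9 (6.45, SE 0.53) with S100a4 (5.68, SE 0.41). In GMP:MA9 they were S100a4 (4.17, SE 0.37) and Ifi30 (3.58, SE 0.31).

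The 3 programme genes that fell in GMP:MA9 were Ly6c1 (-1.27, SE 0.33), Plac8 (-1.12, SE 0.28) and Ly6c2 (-1.06, SE 0.39, adjusted p = 0.0198). Ly6c1 and Ly6c2 encode the Ly6C antigens of classical monocytes. In normal cells they were higher in GMP than in CMP, with log2 differences of CMP from GMP of -3.64 (SE 0.46) and -4.36 (SE 0.83), as was Cybb (-3.80, SE 1.04). The mean of Ly6c2 was 1580 FPKM in GMP, 92.9 in CMP and 763 in GMP:MA9.

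Genes of resident macrophages were at mixed levels. Of 20, 10 had a mean below 1 FPKM over the 19 leukaemias, and 6 were below 1 FPKM in each of them. Apoe was the highest of the list, with group means of 33.3 to 189 FPKM in leukaemias and 157 in MEP. The median of the summed list was 47.8 in MPP and 259 in MPP:MA9, and 43.3 in GMP and 122 in GMP:MA9. It was 130 in CMP and 258 in CMP:MA9. In ST-HSC and STHSC:MA9 it was 110 and 144, with ranges that overlapped (86.0 to 170 and 93.4 to 183). MEP, at 184, lay above the median of GMP:MA9. Of the 9 tested, 5 rose and 2 fell in STHSC:MA9, or 5 and 1 without stem cell replicates 4 and 5, and 4 rose in each other leukaemia against its cell of origin. Of all genes, 12.3%, 13.5%, 13% and 13.5% were called higher for origins ST-HSC, MPP, CMP and GMP. Msr1, a scavenger receptor, lay between 4.49 and 35.15 FPKM in leukaemias, whereas C1qa and Timd4 did not reach 1 FPKM in any.

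Markers of other cell types were read beside these values. The neutrophil list summed to 17000 to 44000 FPKM in STHSC:MA9 and to 804 to 41900 in the other 16 leukaemias, with S100a9 the highest (13300 in STHSC:MA9, 3230 in GMP:MA9). The primary granule list summed to 317 to 3210 in leukaemias and 17300 to 25900 in GMP, but to 674 to 3030 in ST-HSC, 1440 to 4640 in MPP and 1530 to 5920 in CMP. Of its 5 genes, 5 fell in GMP:MA9, 1 fell in each of the other 3 leukaemias against its cell of origin, and 2 rose in STHSC:MA9, or 3 without stem cell replicates 4 and 5. Of all genes, 24.2%, 27.1%, 27.8% and 22.4% were called in either direction for origins ST-HSC, MPP, CMP and GMP. Elane had a mean of 4300 in GMP. Cd209a, of conventional dendritic cells, had group means of 2.91, 9.46, 23.1 and 39.3 for origins ST-HSC, MPP, CMP and GMP, and Tcf4, of plasmacytoid dendritic cells, 11.4, 76.1, 50.6 and 131. Cd79b (18.0 to 35.3), Klrb1c (0.103 to 1.10), Hbb-b1 (9.61 to 132), Itga2b (0.437 to 2.25) and Mecom (0.670 to 28.4) were the highest of the B cell, T and NK cell, erythroid, megakaryocyte and stem cell lists. The part of such cells in the markers' values was not tested.

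The genes whose pattern was most like the mean of the 10 markers differed between the 2 kinds of sample. Over the 30 normal samples they were Pld4 (Pearson r 0.98), Fcer1g (0.971), Tyrobp (0.967), Igsf6 (0.958) and Gapt (0.957), of 11873 genes compared. Without stem cell replicates 4 and 5 they were Pld4 (0.979), Tifab (0.972), Anxa3 (0.972), Pgam1 (0.971) and Nrp1 (0.968), of 11775 genes. Over the 19 leukaemias they were Mob3b (0.958), 5031439G07Rik (0.938), Aim1 (0.935), Myadm (0.933) and Fam129a (0.92), of 11646 genes. These are descriptions over samples that share groups and libraries.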

How the data were processed

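The authors amplified cDNA, sequenced it and used RSEM to estimate the FPKM values that they deposited for 38253 genes. The submitters' processing notes name mm9, and the aligner is not given in the sources used here. The table has 68 columns, and the 19 that matched no label were not used. Positions came from GENCODE M1 on NCBIM37 and promoters from RefSeq. Testing was limited to genes whose mean reached 1 FPKM in a fit and was done on log2(FPKM + 1), a scale that understates the change of low genes, with limma 3.58.1 in R 4.3.3 (trend, two-sided, Benjamini-Hochberg over all genes). The 4 leukaemia groups and their 4 normal groups shared a fit, the 19 leukaemias had their own, and so had the 30 normal samples. Alternatives were a pseudocount of 0.1, no filter, median-ratio scaling, a replicate block, a GC and length correction, no fold threshold, only the groups compared and leaving out replicates. On simulated data 200 of 200 genes changed 8-fold were recovered for MPP:MA9 against MPP, with 1 false call among 12663 genes, and 194 of 200 for STHSC:MA9 against MPP:MA9, with 6 among 12048. The changed genes were drawn from well expressed ones, the noise was independent, and each fit held only the groups compared. The simulation therefore does not show how smaller changes, such as those between leukaemias, would be recovered. Depth was estimated from the worth of 1 read in 5377 single-transcript genes; no read counts were used, so no counting interval was computed. Other steps used Python 3.11.15 (numpy 2.4.6, pandas 2.3.3, matplotlib 3.10.9).

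Members, gene lists and the naming rule were chosen with earlier results of these data known: the 10 members, the 3 largest called rises and falls of partners and of the monocyte programme against each cell of origin and in CMP against GMP, the highest gene of each other list, and the 5 genes most like the members. Samples are from separate mice according to the study, and no batch is labelled. Same-numbered LT-HSC and ST-HSC samples correlated at 0.142 to 0.683 in their deviations and were taken as pairs, a reading of the data and not of the labels. Only 4 of 10 deviated most like the sample of their own number. Replicates 4 and 5 of both groups stood apart together, which cannot be told apart from a pairing here. Printed values are from the fit without a block, and the block was an alternative. No pair of samples held identical values.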

Additional observations from a re-analysis of the deposited data

Results flagged for a closer look

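Among 90 combinations of a marker and a group of 4 to 6 samples, 2 held a sample far from the others. The limit used flags about 1 in 20 by chance if values are normally spread. Cd14 was 0.69 FPKM in MEP replicate 4 and 0 in the other 3 MEP samples. Fcgr1 was 0.27 FPKM in MPP replicate 4 and at most 0.05 in the other 5 MPP samples. Both values are below 1 FPKM with the others at or near 0, where that rate does not hold. A rule for single samples also cannot flag 2 samples of a group that stand apart together, as in LT-HSC and ST-HSC.

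The change against the normal cell was unequal across the 4 origins for 8 of 9 tested markers by limma's F test, where 38% of all genes passed. The adjusted p was 8.06e-05 for Emr1, 0.00013 for Ms4a6c, 0.000142 for F13a1, 0.000541 for Ly86, 0.00681 for Ccr2, 0.0104 for Lgals3, 0.011 for Cd14 and 0.0272 for Mpeg1. The log2 changes behind these tests are those given above, with the change from GMP the smallest for 7 of the 8. For Lgals3 that from ST-HSC was the smallest (4.40, against 4.74 from GMP), and without replicates 4 and 5 of LT-HSC and ST-HSC it was 5.47.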

How the results depend on the processing

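The count of markers called stayed within 1.5 times in 15 of 20 comparisons under every alternative run, the 4 leukaemias against their cells of origin and against GMP among them. CMP vs GMP gave 1 of the 9 with no filter on low values or after a correction for GC content and length, 4 with median-ratio scaling and 5 with only the groups compared, and 1 to 4 when 1 replicate was left out. Without replicates 4 and 5 of LT-HSC and ST-HSC, an alternative added after seeing the data, it gave 4. MPP vs CMP gave 4 with only the groups compared or without those replicates, in place of 0, and 0 to 2 when 1 replicate was left out. LT-HSC vs ST-HSC gave 4 without them and 0 to 3 when 1 replicate was left out. STHSC:MA9 vs MPP:MA9 gave 1 with no fold threshold or with only the groups compared, and 0 to 2 when 1 replicate was left out, and MPP:MA9 vs GMP:MA9 gave 1 with no fold threshold. The share of all genes called was computed under none of the alternatives except that without replicates 4 and 5 of LT-HSC and ST-HSC. These counts therefore do not show whether a move concerned the markers or genes at large. The cause was not tested. No called value changed sign.

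With the replicate number as a block, MPP vs CMP gave 1 (Ms4a6c) in place of 0 and GMP:MA9 vs GMP gave 6 in place of 7, while LT-HSC vs ST-HSC, the pairs that counted as paired, stayed at 0 and, without replicates 4 and 5 (added after seeing the data), at 4. In CMP vs GMP 9 of 10 samples deviated most like the sample of their own number, a hint from the data and not the design. Median-ratio scaling moved the median of all genes by over 0.1 (log2) in CMP:MA9 vs CMP (0.152), LT-HSC vs ST-HSC (0.123), ST-HSC vs MPP (0.102), CMP vs GMP (-0.193) and CMP vs MEP (-0.137).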
